A study of Homo sapiens with 6 samples.

Results

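The IFIT, IFITM, MX and viperin genes encode proteins that act directly on viruses inside the cell. The 10 genes IFIT1, IFIT2, IFIT3, IFIT5, IFITM1, IFITM2, IFITM3, MX1, MX2 and RSAD2 were chosen by the gene name that the platform annotation gives each probe. This choice was made with earlier results of these data known. The 10 genes have 13 probes among the 47225 on the array, and are 10 of its 20044 named genes. The tested cells were ADI-PEG20 resistant Ju77 cells (3 arrays) and they were set against parental Ju77 cells (3 arrays). Ju77 is a human malignant mesothelioma cell line, and ADI-PEG20 is pegylated arginine deiminase, an enzyme that removes arginine from outside the cell. The deposited design compares gene expression between the resistant line and its parent. RNA was taken from both on the day after plating, and the labels name no interferon or virus given to either. By the titles each group is 1 line with repeats, so an effect of resistance and other features of the resistant line cannot be told apart. The labels do not say whether repeats were separate cultures, and the p-values then reflect only how far these samples spread, possibly for technical reasons.

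Type I and type III interferons bind receptors whose kinases activate ISGF3, a transcription factor complex that contains IRF9 and binds the interferon-stimulated response element in the promoters of its target genes. The products of these genes act at different steps of infection. IFITM proteins sit in the plasma membrane and in endosomes and hinder fusion of the viral with the cell membrane. MX proteins are dynamin-like GTPases that act on incoming nucleocapsids, IFIT proteins bind RNA whose end lacks the marks of the cell's own mRNA, and viperin, the product of RSAD2, makes a chain-terminating nucleotide from CTP.

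The core of the response element, GAAA, any 2 bases, then GAAA, reads TTTC, any 2 bases, then TTTC on the other strand. Both strands of RefSeq promoters of build GRCh38.p14 were searched, from 250 bases before to 50 after each annotated start. The table matched 7 of the 10 genes, with 11 promoters. IFIT2, IFITM2 and MX2 have no entry in it. All 7 matched genes had the core in at least 1 promoter, and 9 of their 11 promoters held it. Of all 35116 promoters 3.57% held it, and of the 27305 genes with a promoter 4.38%. A match is a description of the letters, and binding was not measured. One stretch per gene is printed here because these are the letters through which ISGF3 is known to act, and capitals mark the GAAA or TTTC parts of each core.
IFIT1, chr10:89392495-89392541, plus strand: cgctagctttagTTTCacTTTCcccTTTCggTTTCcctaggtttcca
IFIT3, chr10:89327829-89327896, plus strand: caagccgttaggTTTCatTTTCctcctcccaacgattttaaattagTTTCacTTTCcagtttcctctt
IFIT5, chr10:89414511-89414577, plus strand: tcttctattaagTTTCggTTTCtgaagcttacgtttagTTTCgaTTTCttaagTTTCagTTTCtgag
IFITM1, chr11:313988-314049, plus strand: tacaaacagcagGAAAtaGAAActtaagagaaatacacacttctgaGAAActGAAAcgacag
IFITM3, chr11:320874-320924, minus strand: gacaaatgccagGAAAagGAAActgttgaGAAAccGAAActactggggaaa
MX1, chr21:41420557-41420578, plus strand: gcgagcagaaatGAAAccGAAA
RSAD2, chr2:6877620-6877653, plus strand: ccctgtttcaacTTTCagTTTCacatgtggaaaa

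In IFIT1 the cores lay close together, starting at bases -116 and -103 from the start. IFIT5 had 3 cores, which began at bases -45, -19 and -4, and the last of them crossed the start. The IFITM1 cores began at bases -40 and -6, and those of IFITM3 at bases -52 and -35. MX1, whose probe is described below, carried a core after its start 1, at bases 12 to 21. In RSAD2 the core began at base -145 from start 2.

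**Figure D1:**
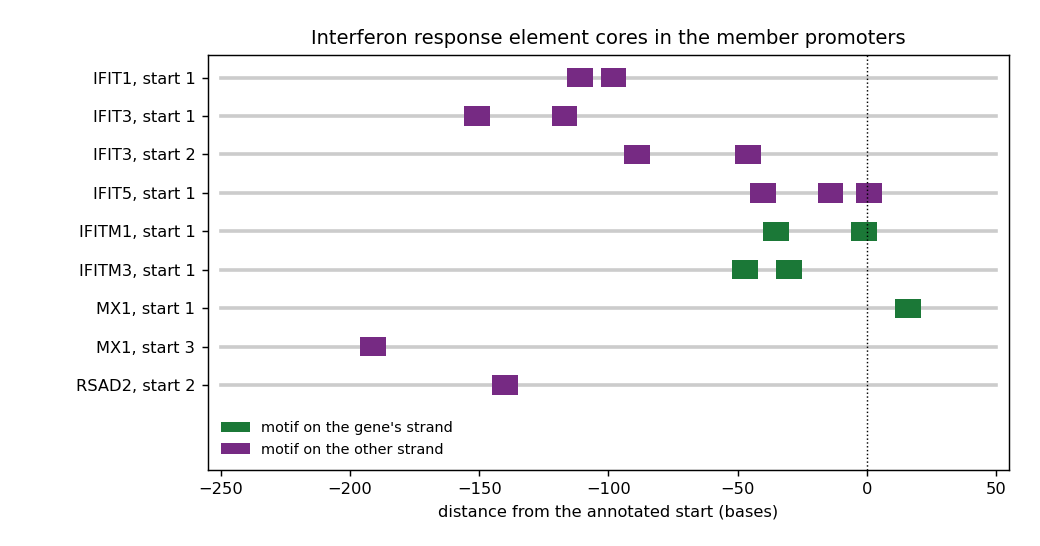
Position of response element cores in the 9 member promoters that hold one, by distance from the annotated start in bases. Grey lines span the 300 bases searched, green boxes are cores on the gene's strand and purple boxes cores on the other strand. The 3 IFIT genes carry theirs on the other strand, IFITM1 and IFITM3 on their own.

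The mean probe intensity was 415 to 454 on the resistant arrays and 470 to 499 on the parental arrays. Between 19024 and 20113 probes per resistant array and 19355 to 19900 per parental array were detected, that is, had a detection p under 0.05. Of 9 markers of mesothelial cells, 6 were detected on every resistant array and 7 on every parental array. Of 13 leukocyte markers 10 were detected on no array, CD3E and PTPRC among them, and summed leukocyte marker intensity was 2159 to 2375 on resistant and 2340 to 2372 on parental arrays. CD68 and FCGR3A were detected on every array, with normalised log2 levels of 9.63 and 5.96 in resistant and 9.38 and 6.12 in parental cells. Neither passed the test described below. None of 6 endothelial markers was detected. A bulk array cannot tell more RNA per cell from more cells that express a gene.

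Every member probe that could be tested was higher in the resistant cells. A probe was tested where it was detected on all 3 arrays of at least 1 group. This kept 12 of the 13 member probes and 9 of the 10 genes, and left MX1 out. All 12 probes were called higher and none lower (limma, Benjamini-Hochberg adjusted p under 0.05 over 17843 probes), where 18.6% of all probes were called higher and 38.8% were called in either direction. By genes, each represented by its brightest probe, 9 of 9 were higher, where 20.9% of 10672 genes were higher and 21.4% lower. One IFIT1 probe and the MX2 probe were detected on no parental array and the RSAD2 probe on 2 of 3, so these 3 passed through the resistant arrays alone and the count over probes that passed is not independent of the filter. The 9 member probes, of 7 genes, that were detected on all 6 arrays did not pass through 1 group alone. All 9 were called higher, against 18.9% of the 15652 such probes, and their median log2 difference was 1.83, against -0.00536 for all such probes. The intensities before any normalisation did not overlap between the groups for all 12 probes, all higher on resistant arrays, against 8.86% of all probes. After normalisation the 12 did not overlap either, against 24.6%. Quantile normalisation gave 3326 probes higher and 3599 lower, 48.0% of the calls being higher. Median scaling moved the median of all probes by -0.14 (log2) and gave 2012 higher and 5580 lower, or 26.5% higher, and the 12 member probes were still called higher.

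**Figure D2:**
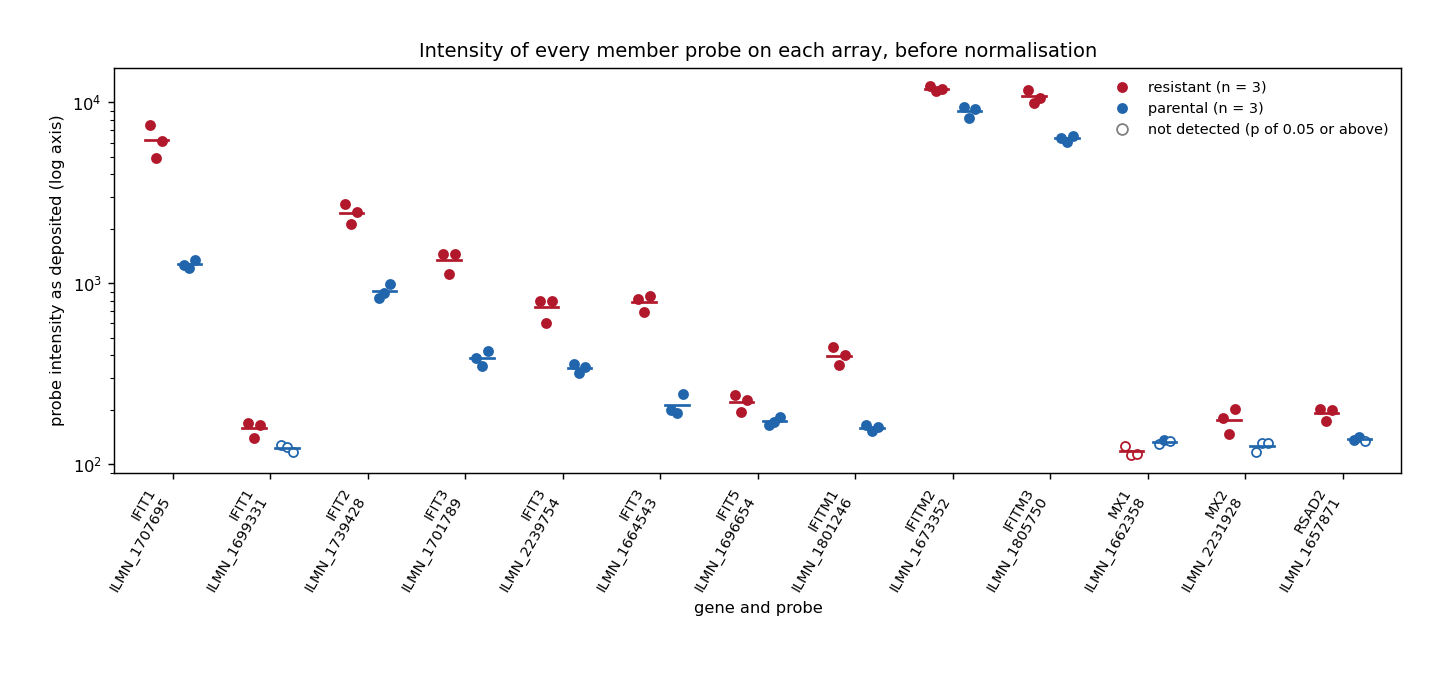
Probe intensity (log axis, before background correction) of the 13 member probes on each array, with resistant arrays left of parental arrays. Bars are group means, and open points arrays on which the probe was not detected. Every probe except that of MX1 has its 3 resistant points above its 3 parental points, with 4922 to 7517 against 1223 to 1348 for the brighter IFIT1 probe and 147 to 201 against 116 to 132 for MX2.

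IFIT1 binds mRNA whose cap lacks ribose methylation and blocks its translation. Its gene lies on chromosome 10 with the other IFIT genes. The brighter IFIT1 probe (ILMN_1707695) had intensities of 7517, 4922 and 6114 on the resistant arrays, against 1263, 1223 and 1348 on the parental arrays. All resistant arrays were several times brighter than every parental array, with replicate 2 the dimmest of them. After normalisation the log2 level was 12.65 ± 0.22 in resistant and 10.08 ± 0.02 in parental cells (SD, n = 3 each), a difference of 2.57 (SE 0.12, 95% interval 2.30 to 2.85), or 5.95-fold (limma adjusted p = 5.89e-06). A second IFIT1 probe (ILMN_1699331) read 169, 140 and 165 on resistant and 127, 124 and 117 on parental arrays. It was detected on no parental array, which leaves a bound of at least 2.05-fold higher (limma adjusted p = 0.000499). Its fitted difference of 1.38 became 0.46 without background correction (log2).

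IFIT2 joins IFIT1 and IFIT3 in complexes that bind RNA. Its probe (ILMN_1739428) read 2761, 2122 and 2470 on resistant arrays, against 828, 883 and 996 on parental arrays. The lowest resistant array was above the highest parental one. The log2 level was 11.33 ± 0.11 in resistant and 9.51 ± 0.11 in parental cells (SD, n = 3 each). The difference was 1.83 (SE 0.10), or 3.54-fold (limma adjusted p = 1.27e-05).

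IFIT3 stabilises IFIT1 and strengthens its hold on RNA, and 3 probes measured it. The brightest (ILMN_1701789) read 1447, 1121 and 1453 on resistant arrays, against 385, 347 and 424 on parental arrays. The log2 level was 10.39 ± 0.15 in resistant and 8.02 ± 0.12 in parental cells (SD, n = 3 each), a difference of 2.37 (SE 0.11), or 5.17-fold (limma adjusted p = 5.83e-06). The other probes gave the same direction with different sizes. One (ILMN_1664543) read 818, 694 and 853 on resistant and 199, 193 and 246 on parental arrays, a log2 difference of 2.92 (SE 0.15), the largest among member probes. The other (ILMN_2239754) read 802, 607 and 803 on resistant and 360, 321 and 347 on parental arrays, a log2 difference of 1.66 (SE 0.12). The fitted differences of these 2 probes of the same gene were thus 1.27 apart on the log2 scale, and without background correction they were 2.09 and 1.31. Which transcripts each probe binds was not tested.

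IFIT5, which acts alone and binds RNA with a triphosphate end, changed least among the IFIT genes. Its probe (ILMN_1696654) read 243, 194 and 227 on resistant arrays, against 166, 170 and 183 on parental arrays. The groups were apart, but resistant replicate 2 stood close to parental replicate 3. The log2 level was 7.04 ± 0.18 in resistant and 6.01 ± 0.10 in parental cells (SD, n = 3 each), a difference of 1.02 (SE 0.11), or 2.03-fold (limma adjusted p = 0.000408). Without background correction the log2 difference was 0.49.

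IFITM1 is found mostly at the cell surface. Its gene lies on chromosome 11 with those of IFITM2 and IFITM3. Its probe (ILMN_1801246) read 442, 354 and 400 on resistant arrays, against 164, 153 and 162 on parental arrays. Every resistant array was far above every parental one. The log2 level was 8.35 ± 0.11 in resistant and 5.71 ± 0.14 in parental cells (SD, n = 3 each), a difference of 2.64 (SE 0.10), or 6.22-fold (limma adjusted p = 3.19e-06). This was the highest fitted difference among member genes, each taken by its brightest probe, but without background correction it was 1.47 (log2).

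IFITM3 and IFITM2 work mainly in endosomes, where many enveloped viruses fuse, and both probes were among the brightest on the array in both groups. The IFITM3 probe (ILMN_1805750) read 11765, 9951 and 10643 on resistant arrays, against 6374, 6076 and 6560 on parental arrays. Its log2 level was 13.45 ± 0.05 in resistant and 12.51 ± 0.03 in parental cells (SD, n = 3 each), a difference of 0.94 (SE 0.08), or 1.92-fold (limma adjusted p = 0.000108). The IFITM2 probe (ILMN_1673352) read 12318, 11571 and 11857 on resistant arrays, against 9383, 8213 and 9182 on parental arrays. Its log2 level was 13.57 ± 0.04 in resistant and 13.04 ± 0.10 in parental cells (SD, n = 3 each). The difference of 0.53 (SE 0.09), or 1.44-fold, was the smallest fitted one among tested member genes (limma adjusted p = 0.00244). Without background correction IFIT5, at 0.49, was below IFITM2, at 0.52 (log2). IFITM3 and IFITM2 thus both stood high in parental cells already and rose further in resistant ones. IFITM2 and IFITM3 have similar sequences, and whether either probe also binds the other's transcripts was not tested.

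MX2 sits at the nuclear envelope and hinders the entry of HIV and herpesvirus genomes into the nucleus. Its gene lies beside MX1 on chromosome 21. The MX2 probe (ILMN_2231928) read 181, 147 and 201 on resistant arrays, against 116, 132 and 132 on parental arrays, and was detected on all resistant and no parental arrays. The groups did not overlap, though resistant replicate 2 was near the parental values. The log2 level was 6.33 ± 0.46 in resistant and 4.70 ± 0.22 in parental cells (SD, n = 3 each). MX2 was at least 2.62-fold higher in resistant cells (limma adjusted p = 0.00111), and its fitted log2 difference of 1.63 (SE 0.22) was 0.57 without background correction.

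MX1, which acts on influenza virus and other RNA viruses in the cytoplasm, is the exception among the members. Its only probe (ILMN_1662358) read 127, 113 and 114 on resistant arrays, against 130, 136 and 134 on parental arrays. Every resistant value was below every parental one. The MX1 probe was detected on 0 of 3 resistant arrays and on 1 of 3 parental arrays. It thus did not enter the test, and its level is only bounded by the background. In the fit without a detection filter the log2 difference was -0.29 (SE 0.10), with a limma adjusted p of 0.145 over 47225 probes. Whether this probe can measure MX1 transcripts in these cells was not tested. The core in its promoter, printed above, is a fact of the letters only.

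RSAD2 encodes viperin, found on the endoplasmic reticulum and lipid droplets, and lies on chromosome 2. Its probe (ILMN_1657871) read 202, 173 and 199 on resistant arrays, against 136, 142 and 135 on parental arrays. It was detected on all resistant and on 2 of the 3 parental arrays, and the groups did not overlap. The log2 level was 6.63 ± 0.14 in resistant and 5.06 ± 0.23 in parental cells (SD, n = 3 each), a difference of 1.57 (SE 0.13), or 2.98-fold (limma adjusted p = 0.000125). Without background correction the difference was 0.58 (log2). CMPK2, the neighbour of RSAD2, whose product makes the substrate of viperin in mitochondria, was detected on no array.

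**Figure D3:**
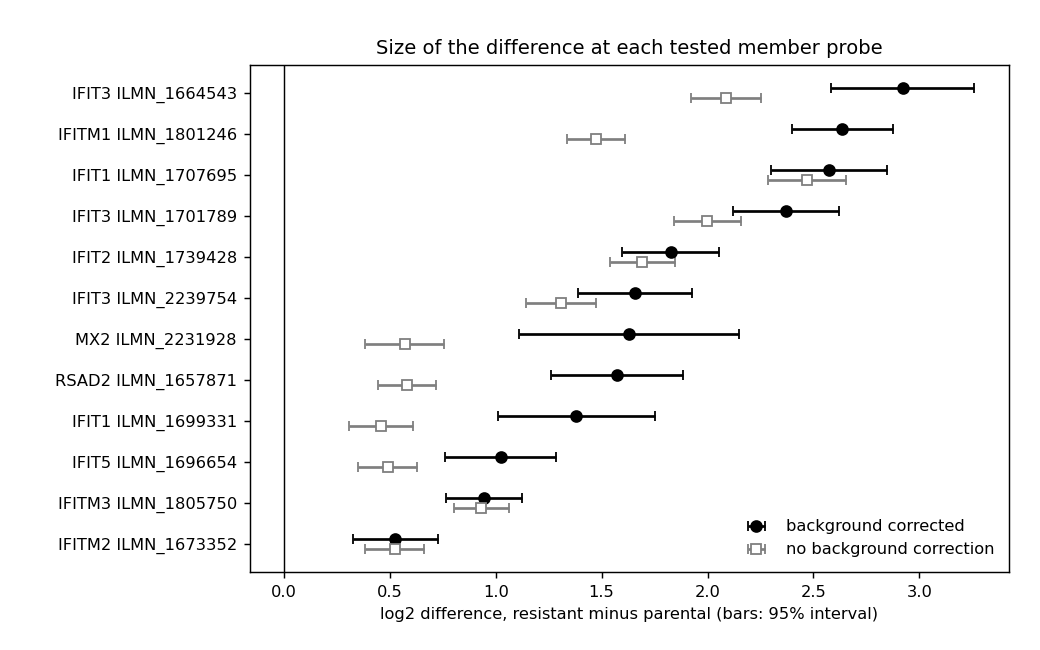
Fitted log2 difference, resistant minus parental, of each tested member probe with its 95% interval, beside the difference without background correction. All intervals lie above 0. IFITM1 drops from 2.64 to 1.47 without background correction and MX2 from 1.63 to 0.57, while IFITM2 stays at 0.53 and 0.52. The points of MX2 and the dimmer IFIT1 probe are fitted values of probes detected on no parental array, which have only a bound.

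The fitted differences ran, from high to low, from IFITM1 (2.64) over IFIT1 (2.57), IFIT3 (2.37), IFIT2 (1.83), RSAD2 (1.57), IFIT5 (1.02) and IFITM3 (0.94) to IFITM2 (0.53). MX2 has only its bound and takes no rank here. Within each array the log2 gap between a gene and the next one was compared between groups. The gaps did not overlap between IFIT3 and IFIT2, between RSAD2 and IFIT5 and between IFITM3 and IFITM2. All other neighbours in this order had overlapping gaps and are not separated. The order was set from the same values, so these gaps are a description and not a test. RSAD2 and IFIT5 stood at 0.58 and 0.49 without background correction (log2). Each gene stands here with its brightest probe. The IFIT3 probe ILMN_2239754, at 1.66, would place IFIT3 below IFIT2, so the order of these genes depends on the probe. Without background correction IFIT1 led, followed by IFIT3, IFIT2 and IFITM1, and IFIT5 came last, so ranks among the dimmer genes depend on that correction.

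By array, the mean of the centred log2 values of the 9 tested member genes was 0.90, 0.67 and 0.94 on the resistant arrays, against -0.86, -0.83 and -0.84 on the parental arrays. Resistant replicate 2 was lowest of the resistant arrays for 12 of the 12 member probes by intensity, where it was lowest for 63.5% of all tested probes. After normalisation it was lowest for 11 of the 12, where it was lowest for 30% of all tested probes. Leaving replicate 2 out left all 12 probes called higher, with the IFIT1 difference at 2.68 and that of MX2 at 1.88 (log2).

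Among receptors, kinases, transcription factors and brakes of interferon signalling, 11 of 20 tested genes were higher and 2 lower (55% higher, median log2 difference 0.38, against 20.9% and -0.00394 over all genes). This list and those of the next paragraph were chosen with earlier results of these data known, so their shares are descriptions only. ISG15, a ubiquitin-like protein that is joined to other proteins and stabilises the brake USP18, rose most, by 2.83 on the log2 scale (7.10-fold, limma adjusted p = 4.45e-06). IRF9, a subunit of ISGF3, rose by 1.82 and IRF7, a factor that drives interferon genes, by 1.46. USP18, which dampens the receptor, was detected on no parental array and was at least 2.62-fold higher. Of the 21 interferon genes themselves 15 were detected on no array. Only IFNE, an epithelial type I interferon, could be tested, and it was at least 1.08-fold lower in resistant cells (limma adjusted p = 0.0232), a call lost in 8 of the 17 alternatives that gave a value. The ligands were thus mostly at background, in resistant and in parental cells.

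Of 22 other antiviral effectors tested, 18 were higher and 0 lower (81.8% higher, median log2 difference 0.94). The largest rises belonged to OAS2 (4.72 on the log2 scale), which makes the oligoadenylate that switches on RNA decay, to the guanylate-binding protein GBP1 (2.99), to OAS1 (2.73) and to GBP2 (2.11). Without background correction these stood at 2.90, 2.34, 1.47 and 1.05 in the order given, all called higher. The OAS2 probe was detected on 2 of the 3 parental arrays, so it passed the filter through the resistant arrays alone. Among 21 tested partners and modifiers of the member proteins, 4 were higher and 2 lower (19% higher, median 0.025), beside the 20.9% over all genes. HADHB, a mitochondrial fatty acid oxidation enzyme that viperin binds, rose by 0.73 and CIAO1, which helps insert the iron-sulphur cluster of viperin, by 0.62. VCP, which acts on ubiquitinated IFITM3, changed by -0.31 and lost its call when any of 3 single arrays was left out and stood at -0.52 under median scaling. PPIA (-1.35), a cyclophilin with many near-identical copies in the genome, is uncertain for that reason and stood at -0.58 without background correction. Its probe had a log2 level of only 5.60 in resistant and 6.95 in parental cells, and which transcripts it binds was not tested. Of 9 tested enzymes that methylate or remove the mRNA cap, the mark that IFIT1 reads, 3 were higher and 1 lower (33.3% higher, median 0.0125). CMTR1 and CMTR2, which methylate the ribose next to the cap, rose by 0.49 and 0.45, and DUSP11, which removes triphosphates from RNA ends, rose by 0.45, a call lost under median scaling, where CMTR1 stood at 0.31 and CMTR2 at 0.28. XRN1 (-0.40), a nuclease that degrades decapped RNA, lost its call in 4 of 18 alternatives.

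**Figure D4:**
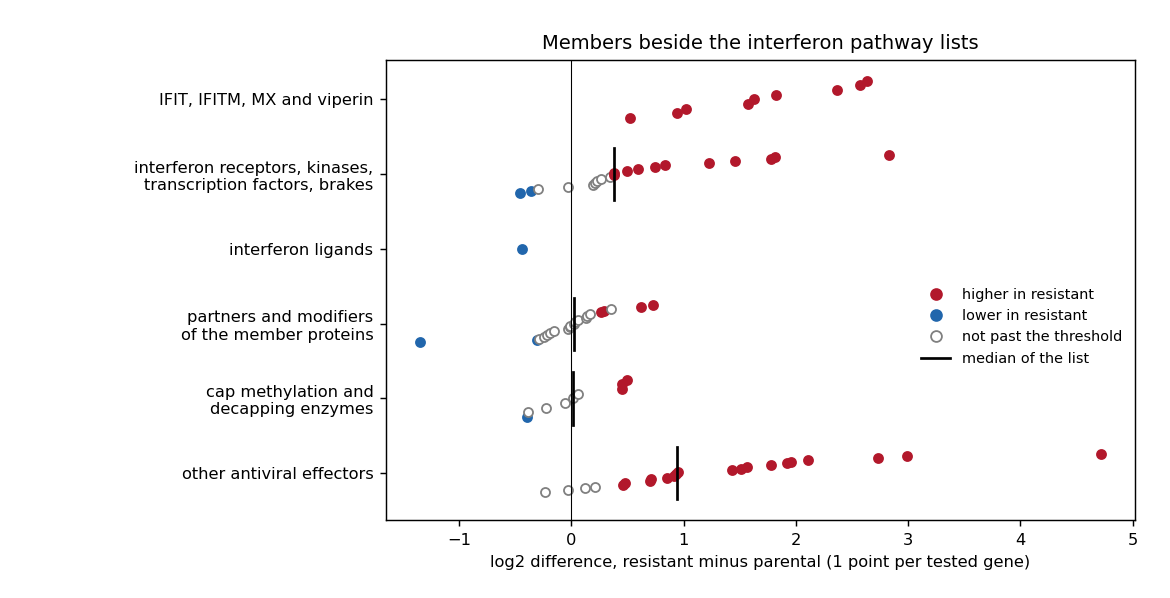
Log2 difference, resistant minus parental, of each tested gene in the members and in 5 pathway lists. Filled points passed the threshold (red higher, blue lower in resistant cells), open points did not, and black bars mark medians of the lists. The points of MX2, USP18 and IFNE are fitted values of probes detected on no array of the dimmer group, which have only a bound. Members and other antiviral effectors lie almost wholly to the right of 0, while partners and cap enzymes lie around it.

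Genes beside the members were called about as often as genes over the whole array. Among 41 of them with a probe (5 on each side of each cluster, and IFIT1B within the IFIT cluster) 18 were tested. Of these 4 were higher and 4 lower, beside 20.9% higher and 21.4% lower over all genes, and the median log2 difference was 0.00473. Beside the IFIT genes 0 of 7 were higher and 3 were lower, namely STAMBPL1 (-0.92), KIF20B (-0.63) and LIPA (-0.48). Beside the IFITM genes PKP3 was higher (0.79, limma adjusted p = 0.0311), a call lost in 5 of 18 alternatives, and the other 4 tested neighbours did not pass. Beside the MX genes BACE2 (0.99) was the only one tested. Around RSAD2, ID2 (1.10) and KIDINS220 (0.64) were higher and RNF144A (-0.97) was lower. Without background correction ID2 stood at 0.44, RNF144A at -0.30 and PKP3 at 0.27 (log2).

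The genes whose pattern over the 6 arrays was most like the member mean were SNAP29, SAMD9L, TMEM140, SP110 and ANKRD17, each with a Pearson r of 0.999. The arrays form 2 groups, so any gene with a clear group difference correlates highly, and 1014 of 10663 genes had an r over 0.95. Their sizes differed, with a log2 difference of 2.61 for SAMD9L, 1.66 for SP110, 0.67 for SNAP29 and 0.43 for ANKRD17. Without background correction SAMD9L stood at 1.21, below SP110 at 1.47, and SNAP29 at 0.42. ANKRD17 stood at 0.26 under median scaling. TMEM140, like MX2, was detected on no parental array.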

How the data were processed

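Total RNA of 6 Ju77 samples was hybridised as biotin-labelled cRNA to Illumina arrays, per the labels' protocols. The deposited table gives a probe intensity and a detection score per array, with no normalisation named in the file headers. The deposited log2 values, used as an alternative, have array medians of 6.98 to 6.99, keep the rank order of the intensities, and were made by a method that the sources used here do not name. In 3269 rows, none of a member, both columns were exchanged and were restored by taking the exponential.

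Intensities were background corrected from detection p-values (normexp, offset 16), then quantile normalised on the log2 scale with neqc (limma 3.58.1, R 4.3.3). Probes with a detection p under 0.05 on each of the 3 arrays in either group were fitted with lmFit and eBayes, two-sided, with Benjamini-Hochberg adjustment over 17843 probes. A gene is its brightest tested probe. Probes dark throughout the dimmer group have a bound, the brighter mean against the higher of each array's lowest detected signal and the probe's own. The functions were tested on simulated arrays. Of all probes 30111 had 1 gene name, 8 several and 17106 none. No build is given for the arrays, so coordinates are those of RefSeq promoters.

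Members and gene lists were chosen with earlier results of these data known. Named genes are all members, up to 4 called non-overlapping genes with the largest difference per list, the 5 most alike and called neighbours. Fibroblast markers had 1 higher and 1 lower of 2 tested, lung epithelium 0 called of 1, and mesothelial markers 2 higher and 3 lower of 7. Same-numbered replicates had correlated deviations of -0.06 to 0.06, and differently numbered ones of -0.14 to 0.12. With 3 arrays per group these values cannot decide whether the samples were paired. Alternatives, 18 planned and 1 chosen after seeing the data (probes detected on all 6 arrays), covered correction, scaling, filter, model, replicate block and leaving out each array. The number of arrays limits the precision.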

Additional observations from a re-analysis of the deposited data

How the results depend on the processing

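All 12 tested member probes were called higher in each of the 17 to 19 alternatives that gave a probe a value, with a highest limma adjusted p of 0.0116 for IFITM2. The fitted log2 difference ranged from 0.57 to 1.88 for MX2, from 0.58 to 1.68 for RSAD2, from 0.49 to 1.13 for IFIT5 and from 0.46 to 1.57 for the dim IFIT1 probe. The lowest of each came without background correction, and the highest without resistant replicate 2, or for RSAD2 without parental replicate 2. With the replicate block the count stayed at 12 probes and 9 genes higher and 0 lower. Among pathway counts it gave 12 interferon signalling genes (receptors, kinases, transcription factors and brakes) and 3 partners higher and 2 cap enzymes lower. Leaving out each array kept 12 member probes and 9 member genes higher and 0 lower.

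Over 18 alternatives the signalling genes called higher numbered 8 to 14 and the other antiviral genes 16 to 19, with the lowest counts under median scaling. Other list values moved as follows, as medians of log2 differences or genes called. Without background correction the signalling median was 0.27, the ligand median -0.14 with 0 lower and the other antiviral median 0.83. In that setting 4 partners and 3 cap enzymes were lower. An offset of 50 gave 0 ligands lower, a ligand median of -0.20, 3 cap enzymes lower and an antiviral median of 0.86. Median scaling gave a signalling median of 0.26, and 2 partners higher and 4 lower with a median of -0.14. It also gave 3 cap enzymes lower with a median of -0.20, and 1 other antiviral gene lower with a median of 0.79. Deposited log2 values gave a signalling median of 0.29, and 0 ligands lower with a median of -0.15. They also gave 4 partners lower with a median of 0.00572, 3 cap enzymes lower and an antiviral median of 0.80. A detection p under 0.01 gave a signalling median of 0.44 and a partner median of 0.00549 and left no ligand. With no detection filter 1 signalling gene, 0 ligands and 0 cap enzymes were lower. The ligand median was then -0.048 and the partner median -0.0129. The intensity trend gave 0 ligands, 4 partners and 3 cap enzymes lower. Array weights gave 2 cap enzymes and 1 other antiviral gene lower, one probe per gene gave 1 other antiviral gene lower, and leaving out the exchanged rows gave an antiviral median of 1.19. Leaving out each array gave signalling counts of 10 to 11 higher and 1 to 2 lower (median 0.35 to 0.44). Ligand counts were then 0 to 1 lower (median -0.53 to -0.35). Partner counts were 2 to 5 higher and 1 to 2 lower (median 0.00655 to 0.0646). Cap enzyme counts were 0 to 1 lower with 3 higher (median -0.0501 to 0.0509). Other antiviral counts were 18 higher and 0 lower (median 0.94 to 0.98). The cause of these shifts was not tested. Signal over background limits MX1, MX2, RSAD2 and the dim IFIT1 probe. The sizes for IFITM1 and IFIT5 also depend on background correction, at 2.64 and 1.02 with it and 1.47 and 0.49 without (log2).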
